A study of Rattus norvegicus with 2 samples.

Results

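Matricellular proteins are secreted into the extracellular matrix but act there mainly as signals and organisers rather than as load-bearing fibres. The 10 genes described here are Postn, Tgfbi, Sparc, Sparcl1, Tnc, Thbs1, Thbs2, Thbs4, Comp and Fn1, chosen by name, together with all their probes, out of 15168 genes with a named probe on the array. The choice was made with earlier results of these data known. The samples were stromal cells derived from bone marrow, that is, plastic-adherent cells of the marrow's supporting tissue kept in culture. The control cells came from wild type Sprague-Dawley rats, and the transgenic cells from double transgenic rats of the same background, in which human renin and human angiotensinogen, the enzyme and the substrate that start the renin-angiotensin system, are both present as transgenes. In both groups 150000 cells per well of a 6-well plate were grown to subconfluency before RNA was taken. Each group was measured on 1 single-colour array. The number of animals behind each array, their age, and the promoters of the transgenes are not given in the sources used here.

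Proteins of this class bind collagens, integrins, proteoglycans and growth factors, and many are produced at sites of matrix remodelling such as healing wounds, growing bone and fibrotic tissue. The thrombospondins are multimeric calcium-binding glycoproteins. Thbs1 and Thbs2 form trimers, bind the receptors CD36 and CD47 and restrain the growth of blood vessels, whereas Thbs4 and Comp form pentamers and are known from tendon and cartilage. Postn and Tgfbi are paralogs built from fasciclin domains, and Sparc and Sparcl1 are paralogs that bind calcium and collagen. Tnc, a hexameric glycoprotein, modulates adhesion to Fn1, the fibronectin that cells assemble into fibrils through integrins.

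Among the members, Thbs2 was 10.4-fold higher and Tgfbi 4.99-fold higher on the transgenic array, Postn was 12.3-fold lower, and Comp was at least 7.86-fold lower. The bound of Comp held for this processing only and fell to as low as 2.46-fold under others. Thbs1, Sparc, Tnc and the main probe of Fn1 lay within 2-fold. Of the 10 genes, 9 had a probe (10 probes in all, with 2 for Fn1), and no probe matched the accessions of Thbs4 used here. Of these 9 genes, 7 were well above background on both arrays, Comp was so on the control array only, and Sparcl1 on neither. A gene counted as above background when more than 50% of the spots of its probe were so by the scanner software. Differences are transgenic minus control on the log2 scale after each array was divided by its 75th percentile of signal, which was 905 units in control and 1080 units in transgenic. With 1 array a group there was no replicate check, no test and no p-value, and a 2-fold size rule took the place of a test. The error given with a difference is the scanner software's own for the spots, and it leaves out the spread between cultures and animals. It is not computed from the spread between the spots of a probe. Its median was 0.20 log2 over genes above background on both arrays, while the median SD between spots was 0.06 log2 on each array. In RNA from a whole culture, fewer cells of a type and less RNA per cell cannot be told apart.

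Of the 7 genes above background on both arrays, 2 were at least 2-fold higher (10.5% of 15501 genes or unmatched transcripts were) and 1 was at least 2-fold lower (10.3%). In either direction 3 of 7 genes, or 42.9%, passed the size rule, beside 20.8% of all genes. In a set of 7 each gene is 14.3% of the whole, so these shares are coarse. The median difference was -0.14 log2 over the 7 genes and -0.07 log2 over all genes. The members spanned 6.99 log2 units, from -3.62 for Postn to 3.38 for Thbs2, so the median describes none of the genes far from it. With the arrays scaled on the E1A spike-in probes every difference was 0.99 log2 higher (a factor of 1.98). Under that scaling the signs of Sparc, Thbs1 and the main probe of Fn1 turned positive, 44.7% of all genes were at least 2-fold higher and 2.43% lower. Of the genes past 2-fold, 94.8% were then higher, against 50.6% with the 75th percentile. Each difference given here is thus a position relative to most genes on the arrays.

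**Figure D1:**
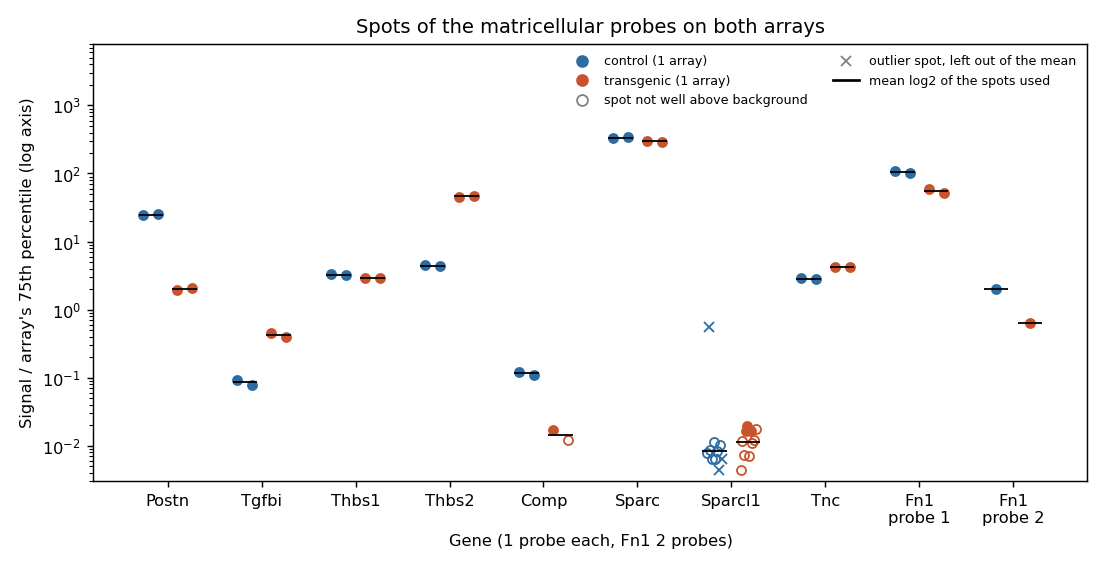
Signal of each spot divided by its array's 75th percentile (log axis), for the 10 probes of the 9 measured genes on the control array (blue) and the transgenic array (orange), with black bars for the mean log2 of the spots used. Spots of the arrays lie far apart for Postn, Tgfbi, Thbs2 and Comp, and most spots of Sparcl1 are open circles, not well above background.

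The fasciclin-domain paralogs differed in opposite directions. Postn encodes periostin, which binds collagen and integrins in bone, periodontal ligament and healing tissue. Its 2 spots read 21971 and 22956 units on the control array and 2129 and 2242 units on the transgenic array. Both transgenic spots were far below both control spots. The difference was -3.62 log2 with an error of 0.20, which placed Postn 78th from the lowest of 15501 genes. Tgfbi encodes the TGF-beta-induced protein, an adhesion protein named for the growth factor that induces it. Its spots read 84.7 and 69.8 units on the control array and 484 and 432 units on the transgenic array. Tgfbi was thus dim but above background on the control array, with a difference of 2.32 log2 and an error of 0.22, 303rd from the highest. It was 1.66 log2 with normexp background correction and 3.30 log2 with spike-in scaling. In the authors' deposited table, whose processing is not stated here, it was 1.71 log2. The difference of Tgfbi exceeded that of Postn by 5.93 log2 with an error of 0.30, and by 5.21 to 5.98 log2 over the 7 ways of scaling and background correction compared. A gap between genes of the same arrays does not depend on a scaling constant.

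The promoters of this pair also differed in base composition. RefSeq's rat promoter table (build GRCr8) held 8 of the 10 genes, and Thbs2 and Fn1 were not among them. In the 250 bases before the table's start site, Postn had a GC content of 50.8% with 2 CpG dinucleotides, and Tgfbi 65.6% with 22, beside a median GC content of 52.0% and a median of 6 CpG over 27457 promoters. The letters TATAAA, searched on the forward strand only, occurred once before Postn, at positions -44 to -39 from the start site, and not in the Tgfbi window. They occurred in 8.38% of all promoters of this length. The 30 bases from -45 to -16 are shown for both genes, with TATAAA in capitals. Other gene models begin further upstream, so the whole Postn window and 121 of the 250 bases of the Tgfbi window lie inside the gene's annotated span.
Postn, chr2:140678016-140678045, plus strand: cTATAAAttcagctctctagaacacaggcc
Tgfbi, chr17:7990129-7990158, minus strand: ccccgccgctctcacttcgccagcgccgcc
These matches are a description of letters, and the arrays carry no measurement of promoter activity.

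The trimeric thrombospondins differed from each other as well. Thbs2, whose product inhibits angiogenesis and influences collagen fibril assembly, read 4079 and 3942 units on the control array. On the transgenic array its spots read 48861 and 50446 units. The spots of each array lay close together. The difference was 3.38 log2 with an error of 0.20, and Thbs2 ranked 129th from the highest of 15501 genes. It ranged from 3.33 log2 in the authors' deposited table to 4.36 log2 with spike-in scaling. Thbs1, the thrombospondin stored in platelets and an activator of latent TGF-beta, read 2987 and 2915 units in control and 3185 and 3196 units in transgenic. After scaling its difference was -0.14 log2 with an error of 0.20, which is within that error, and 0.84 log2 with spike-in scaling. The difference of Thbs2 exceeded that of Thbs1 by 3.52 log2 with an error of 0.29, an 11.4-fold divergence between the paralogs. Over the 7 ways of processing this gap lay between 3.48 and 3.52 log2.

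Comp, the cartilage oligomeric matrix protein and a pentameric relative of the thrombospondins, was dim on both arrays. Its spots read 111 and 99.3 units in control and 18.4 and 13.2 units in transgenic, where 1 of 2 spots was well above background. The lowest signal of any probe well above background on the transgenic array was 15.9 units, and against that limit Comp was at least 7.86-fold lower (-2.97 log2). Over all genes above background on 1 array or both, 2.86% were above background on control only with a bound of at least 2-fold, and 2.5% on transgenic only. The bound of Comp rested on the processing, at 3.97-fold with spike-in scaling and 2.46-fold with normexp correction, and the authors' deposited table gave a difference of -1.15 log2. Markers of tendon and cartilage, in which Comp is best known, were mixed. Of 13 markers 9 had a probe and 6 were above background on both arrays. By the size rule 1 of these was higher (16.7%, beside 10.5% of all genes) and 2 were lower (33.3%, beside 10.3%). Before scaling, the list had a summed signal of 29366 units in control and 18183 in transgenic, and after scaling the sums differed by -0.95 log2. Scx, a tendon transcription factor, gave most of that sum, at 26365 and 14336 units before scaling. Its main probe was 2.19-fold lower, while its other probe, at -0.81 log2, did not pass the size rule. Acan, which encodes the aggrecan of cartilage, was 8.76-fold lower and Fmod, the collagen-binding proteoglycan fibromodulin, 2.52-fold higher. Tnmd was not above background on either array. Their part in the result for Comp was not tested.

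The upstream sequences of Thbs1 and Comp are shown because the genes are of one family and lay on opposite sides of the size rule. Each is the 250 bases before the start site, 5′ to 3′ on the gene's own strand (RefSeq, GRCr8). Capitals mark CAGAC or its reverse complement GTCTG, the core letters of the element bound by SMAD proteins, which carry the TGF-beta signal. These letters, searched on both strands, were present in 42.8% of all promoters of this length. Thbs1 had no match and Comp had 2.
Thbs1, chr3:125510000-125510249, plus strand: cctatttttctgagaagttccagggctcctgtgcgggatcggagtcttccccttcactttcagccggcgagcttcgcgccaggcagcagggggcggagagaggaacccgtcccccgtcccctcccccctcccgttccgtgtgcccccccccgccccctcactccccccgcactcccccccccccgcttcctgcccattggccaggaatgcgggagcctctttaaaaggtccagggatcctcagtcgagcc
Comp, chr16:19089549-19089798, minus strand: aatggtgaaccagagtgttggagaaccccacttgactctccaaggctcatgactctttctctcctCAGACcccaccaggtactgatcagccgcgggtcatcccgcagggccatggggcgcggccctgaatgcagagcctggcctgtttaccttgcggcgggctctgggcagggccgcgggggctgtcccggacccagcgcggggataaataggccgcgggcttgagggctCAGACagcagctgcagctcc
Both were GC-rich, at 67.6% and 64.8%, with 16 and 14 CpG dinucleotides. The GC box GGGCGG, counted on both strands, occurred 2 times before Thbs1 and not before Comp, and in 32.4% of all promoters.

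Sparc, also known as osteonectin, is a collagen-binding glycoprotein of bone and of cultured stromal cells. Its probe gave mean signals of 301258 units in control and 320575 units in transgenic, and the SD between the spots of an array was 0.03 log2 on each. The scaled difference was -0.16 log2 with an error of 0.20. Its sign depended on the scaling, with 0.05 under quantile normalization, 0.16 in the authors' deposited table and 0.82 with spike-in scaling. Sparcl1, its paralog, gave no usable level. Of its 10 spots on the control array 3 were outliers and left out, and none of the 7 others was well above background. On the transgenic array 3 of 10 spots were, at 17.8, 21.3 and 17.7 units. One of the omitted control spots read 507 units, while the other control spots lay between 3.96 and 10.4 units. No fold is given for Sparcl1, since both arrays were below the detection limit for the probe as a whole. The Sparc promoter window held 3 SMAD core matches, the most of the 8 members in the table, but only 2 CpG dinucleotides at a GC content of 60.0%.
Sparc, chr10:40038817-40039066, minus strand, 250 bases before the start site with CAGAC or GTCTG in capitals: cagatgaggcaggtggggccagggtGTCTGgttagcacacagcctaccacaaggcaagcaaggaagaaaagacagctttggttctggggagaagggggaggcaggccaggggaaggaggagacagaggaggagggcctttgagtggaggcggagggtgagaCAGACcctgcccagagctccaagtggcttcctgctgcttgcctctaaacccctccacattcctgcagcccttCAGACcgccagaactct

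The adhesion glycoproteins tenascin-C and fibronectin had modest differences of opposite sign. Tnc, an anti-adhesive protein of developing and injured tissue, read 2607 and 2569 units in control and 4575 and 4487 units in transgenic. The scaled difference was 0.55 log2 with an error of 0.20, a 1.47-fold higher signal. With spike-in scaling it was 1.54 log2 and passed the 2-fold rule. The main probe of Fn1 read 99874 and 92086 units in control and 63057 and 56166 units in transgenic. Its difference was -0.94 log2 with an error of 0.20, a 1.92-fold lower signal that just missed the 2-fold rule. The second Fn1 probe, with 1 spot an array, read 1829 units in control and 693 units in transgenic, a difference of -1.65 log2 or 3.15-fold lower. Both Fn1 probes were thus lower on the transgenic array, and they differed from each other by 0.71 log2 with an error of 0.29. The authors' deposited table kept the same order, at -0.85 and -1.59 log2. With spike-in scaling the probes came to 0.04 and -0.67 log2. The difference of Tnc relative to that of the main Fn1 probe came to a 2.82-fold divergence (1.38 to 1.51 log2 over the 7 ways of processing).

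**Figure D2:**
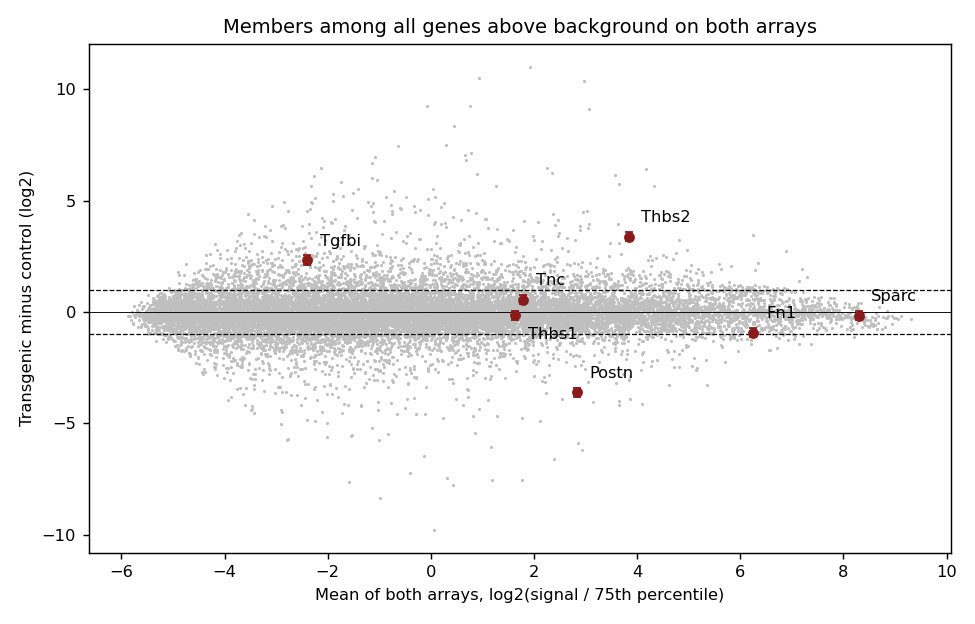
Difference between arrays (transgenic minus control, log2) against the mean of both arrays (log2 of signal over the 75th percentile) for 15501 genes or unmatched transcripts (grey) and the 7 members above background on both arrays (red, with the scanner software's error). Dashed lines mark 2-fold, and Thbs2, Tgfbi and Postn lie outside them.

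**Figure D3:**
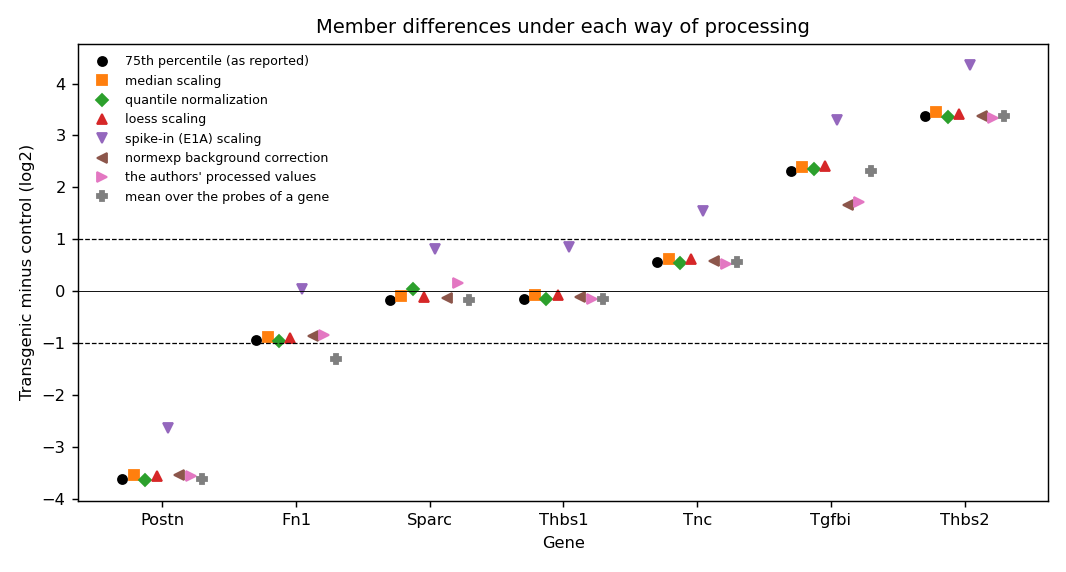
Difference of each of the 7 genes (log2) under 8 ways of processing, with dashed lines at 2-fold. Postn, Tgfbi and Thbs2 stay outside the lines on the same side in every case shown, though averaging a gene's probes can move Fn1 only. Sparc crosses 0 under quantile normalization, in the authors' values and with spike-in scaling, and Thbs1 and Fn1 with spike-in scaling only.

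The wider matricellular group was described through a list of 25 other genes. This list and the other gene lists were written with earlier results of these data known, so their shares are a description only. Of the 25 genes, 20 had a probe and 15 were above background on both arrays. Of these 15, 7 were at least 2-fold lower (46.7%, beside 10.3% of all genes) and 4 higher (26.7%, beside 10.5%), with a median of -0.55 log2. The bone phosphoprotein Spp1 was 18.4-fold lower and Ccn5, a CCN protein of smooth muscle and stroma, 17.5-fold lower. The calcium-binding relative of Sparc, Smoc1, was 8.22-fold lower and Ccn4, a target of WNT signalling, 4.74-fold lower. Ibsp, the bone sialoprotein, was above background in control only, at least 7.47-fold lower by this processing. Bounds under other processing were computed for Comp only, so this bound and those below hold for this processing only. The 4 higher genes, named after their values were seen, were the galectin Lgals3 (4.59-fold), the tenascin Tnn (4.04-fold, and 2.20 log2 on its other probe), the elastic fibre glycoprotein Emilin1 (3.23-fold, and 2.46 log2 on its other probe) and the integrin ligand Mfge8 (2.08-fold). The tenascins Tnc and Tnn thus both had a positive difference, while the third tenascin measured, Tnr, was above background on neither array, as were Ccn6, Spock3 and Vtn. With spike-in scaling, under which 44.7% of all genes were higher and 2.43% lower, 4 of the 15 were lower and 5 higher.

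Receptors of these proteins were split evenly. Of 24 listed, 18 had a probe and 16 were above background on both arrays, with 4 higher (25%, beside 10.5% of all genes) and 4 lower (25%, beside 10.3%) by the size rule (median 0.41 log2). Itga4, the alpha4 integrin subunit that binds Fn1, was 5.78-fold lower, the proteoglycan Cspg4 5.62-fold and the syndecan Sdc2 5.17-fold lower, whereas Sdc4, a syndecan that acts with integrins on Fn1, was 5.45-fold higher. Others past the size rule, named after their values were seen, were Itgb1 (2.48-fold lower), Lrp1, which takes up thrombospondins (3.42-fold higher), Sdc1 (2.56-fold higher) and Calr, a partner of Lrp1 in thrombospondin signalling (2.48-fold higher). Of the thrombospondin receptors, Cd47 differed by -0.20 log2 on its main probe and 0.40 log2 on its other probe, and Cd36 was above background in control only, with a bound of 1.85-fold. Itgb6 was above background on neither array. With spike-in scaling, under which 44.7% of all genes were higher and 2.43% lower, 10 receptors were higher and 3 lower.

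Genes of the matrix that these proteins bind, and of its assembly, were lower in part. Of 22 listed, 16 had a probe and 13 were above background on both arrays, 4 of them at least 2-fold lower (30.8%, beside 10.3% of all genes). The 1 higher gene was 7.69% of the 13, near the 10.5% of all genes, and the median was -0.67 log2. Col3a1 was 5.71-fold, the microfibril protein Fbn1 2.73-fold, Col14a1 2.71-fold and Col1a2 2.11-fold lower. Tgm2, the transglutaminase that crosslinks Fn1 and other matrix proteins, was 16.8-fold higher. Bmp1, a protease that matures procollagen, differed by 0.66 log2. Dcn and Fbln1 were above background in transgenic only, with bounds of at least 4944-fold and 5.14-fold by this processing. Hapln1 was above background on neither array. With spike-in scaling, under which 44.7% of all genes were higher and 2.43% lower, 1 of the 13 was lower and 2 were higher.

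Ligands, receptors and targets of TGF-beta, which is a known inducer of Tgfbi, Postn and Fn1, were described in the same way. Of 23 listed, 18 had a probe and 16 were above background on both arrays, with 7 lower (43.8%, beside 10.3% of all genes) and 2 higher (12.5%, near the 10.5% of all genes) by the size rule (median -0.69 log2). The ligand Tgfb2 was 4.79-fold lower, the contractile target Acta2 4.14-fold lower and the early response factor Klf10 3.30-fold lower. Tgfb1 differed by -0.59 log2. The co-receptor Eng was 5.22-fold higher, as was the pseudoreceptor Bambi, by 2.77-fold, which was named after its value was seen. Tgfbr3 and Smad3 were above background on neither array. With spike-in scaling, under which 44.7% of all genes were higher and 2.43% lower, 2 of the 16 were lower and 5 higher.

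Proteases that can cleave matricellular proteins were described last. Of 20 listed, all 20 had a probe and 12 were above background on both arrays, with 6 higher (50%, beside 10.5% of all genes) and 2 lower (16.7%, beside 10.3%) by the size rule (median 0.84 log2). Adamts7, one of the proteases known to degrade Comp, was 16.5-fold higher, the gelatinase Mmp2 6.55-fold higher (3.61 log2 on its other probe) and Adamts1, which cleaves thrombospondins, 5.87-fold higher. Tll1, a tolloid protease of procollagen, was 5.34-fold lower. Adamts12, which can also degrade Comp, was 2.52-fold lower and was named after its value was seen. Adamts4, known mainly for cleaving aggrecan, was above background in transgenic only, at least 2.99-fold higher by this processing. It was likewise named after its value was seen. In all, 5 proteases, Adamts4 among them, were above background in transgenic only, led by Mmp3 (at least 539-fold higher) and Mmp9 (at least 413-fold higher). Over all genes above background on 1 array or both, 2.5% were in transgenic only with a bound of at least 2-fold. Plau was above background in control only. Mmp7 and Mep1a were above background on neither array. With spike-in scaling 10 were higher, where 44.7% of all genes were, and 1 was lower, where 2.43% of all genes were.

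**Figure D4:**
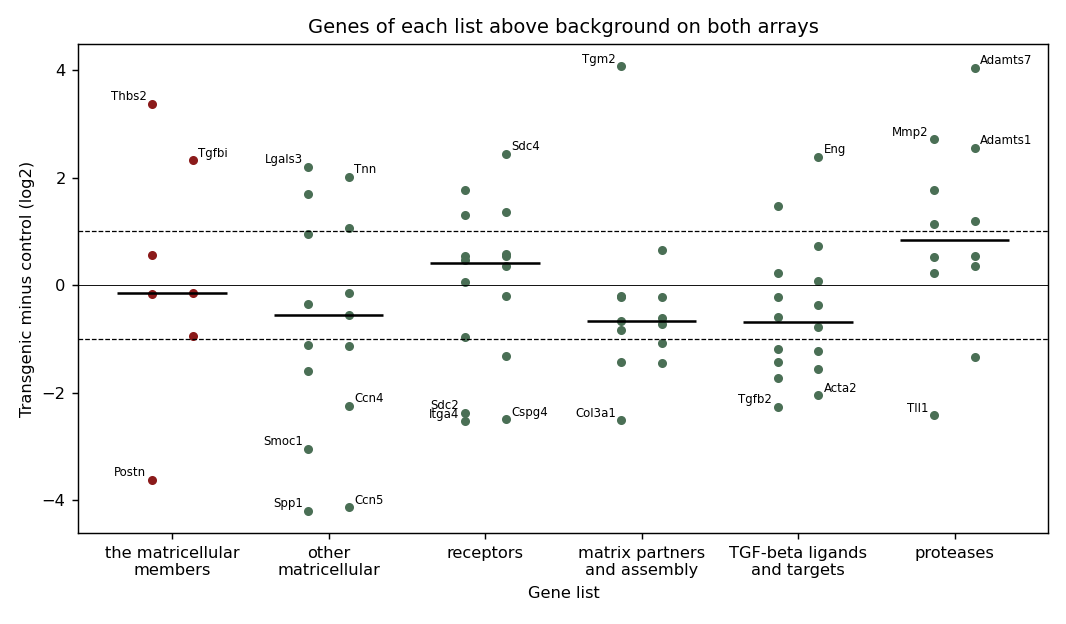
Difference between arrays (transgenic minus control, log2) of the genes above background on both arrays, for the 7 members and 5 related lists, with a bar at each median and dashed lines at 2-fold. Genes at least 4-fold apart are named. The other matricellular genes reach from -4.20 (Spp1) to 2.20 (Lgals3), and the protease list has the highest median (0.84).

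Markers of the labelled cell type were present. Of 13 stromal markers 11 were above background on both arrays, among them Pdgfrb (-0.87 log2), Pdgfra (1.72) and Thy1 (0.61), and Lepr was so on neither. By the size rule 4 were higher (36.4%, beside 10.5% of all genes) and 1 was lower (9.09%, near the 10.3% of all genes). Cxcl12 was 8.55-fold and Eng 5.22-fold higher, while Col1a2 was 2.11-fold lower. Vcam1 was above background in transgenic only. With spike-in scaling, under which 44.7% of all genes were higher and 2.43% lower, 7 were higher and 0 lower. Of 14 monocyte and macrophage markers 9 were above background on both arrays. By the size rule 6 were lower (66.7%, beside 10.3% of all genes) and 2 higher (22.2%, beside 10.5%), also with spike-in scaling. Their summed signal was 18107 units in control and 5577 in transgenic, before scaling like all sums in this paragraph. Lyz2 was 151-fold lower, Tyrobp 46.1-fold lower and Fcer1g 22.3-fold lower. C1qa, C1qc and Adgre1 were above background in control only, with bounds of at least 99.4-fold, 12.3-fold and 2.69-fold lower by this processing. The 2 higher markers were Cd14 (1.78 log2) and Cd68 (1.58 log2), and Ptprc and Itgam were above background on neither array. Osteoblast markers, which share Spp1 and Ibsp with the matricellular list, had a summed signal of 50681 units in control and 3565 in transgenic. Spp1 alone gave 48840 and 3169 of these units. Of 5 osteoblast genes above background on both arrays, 3 were lower (60%, beside 10.3% of all genes) and 0 higher, or 3 and 1 with spike-in scaling. Besides Spp1, Omd was 29.3-fold and Alpl 6.48-fold lower, while Sp7 differed by 0.72 log2. Bglap was above background on neither array. Smooth muscle markers summed to 355438 and 123670 units. Of 9 above background on both arrays, 6 were lower (66.7%, beside 10.3% of all genes) and 0 higher, or 3 and 1 with spike-in scaling. Actg2 was 59.3-fold, Myh11 15.1-fold and Acta2 4.14-fold lower, while Cnn1 differed by 0.03 log2. Platelet markers, relevant to Thbs1, summed to 6174 and 3933 units. Of 4 above background on both arrays, 0 were higher and 1 was lower (25%, beside 10.3% of all genes). The lower gene was Pf4 (18.3-fold), while Gp1bb (-0.54 log2), Gp5 (-0.55 log2) and Gp9 (0.21 log2) lay within 2-fold. Ppbp was above background on neither array. Of 8 endothelial markers with a probe, 2 were above background on both arrays, and Pecam1 and Kdr were so on neither. The part of these cell types in the differences of the members was not tested.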

How the data were processed

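Each group had 1 Agilent single-colour rat array. Per the file headers the deposited intensity values come from Agilent Feature Extraction 11.0.1.1 after background subtraction and detrending, without normalization between arrays, and the deposited flags (other columns) mark outlier, saturated and background spots. The authors' processed values were deposited on a log2 scale; their normalization was not stated here, and their centring stays unknown. The column medians were 7.20 in control and 7.18 in transgenic, and the differences had r = 0.979 with those used here across 11822 genes, which are not independent replicates.

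Of 58717 non-control spots, 446 (control) and 505 (transgenic) outliers were left out. Log2 signals were averaged per probe, each array's 75th percentile was subtracted, and a gene was read from its brightest probe. No spot was saturated, and 60.2% and 60.8% of 30367 probes were well above background. Probes were named by matching accessions to RefSeq genes of GRCr8, which named 18005. A lower bound uses the dim probe's signal or the array's lowest signal above background, whichever is larger. Bounds under other processing were computed for Comp only. Arrays are 1 a group, which limits the precision.

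The members and lists were chosen with earlier results of these data known. Named genes were all members and, of each related list, up to 4 by absolute difference, up to 2 by bound, and genes not above background. The same rule plus defining markers was set for the marker lists, of which only part of the genes it picks are named. Scaling, background (limma 3.58.1 in R 4.3.3), filters and size rules were varied. The summarising steps were tested on simulated data.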

Additional observations from a re-analysis of the deposited data

How the results depend on the processing

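Postn, Tgfbi and Thbs2 kept their direction and their side of the 2-fold rule in all 30 of their alternative values. Not all of these values could differ from the reported one. Each gene has 1 probe, so averaging probes returned the reported value, as did both changes of filter. None of their spots was an outlier, so keeping outlier spots left the values almost unchanged. The count of members at least 2-fold lower was 1 and became 2 when a gene's probes were averaged (Fn1), with genes detected on either array admitted and with no filter on dim probes (Comp in both cases), and with a size rule of 1.5-fold (Fn1). The count of higher members was 2 and became 3 with spike-in scaling (Tnc), which is within 1.5 times. Under that scaling 44.7% of all genes were at least 2-fold higher. The median over the members was -0.14 log2, 0.84 with spike-in scaling and 0.16 in the authors' processed values. Of 70 alternative values of single genes, 58 lay within the scanner error of the reported value. These include the changes of filter, which cannot move a gene's value, and the averaging of probes, which can move Fn1 only. In the 5 related lists, 52 of 60 alternative counts were within 1.5 times the reported count, and the 8 others were under spike-in scaling. The 8 E1A probes spanned 0.86 log2 in their own differences between the arrays. The lower bound of Comp was -2.97 log2 and moved to -1.99 with spike-in scaling and -1.30 with normexp correction. Normexp correction used the median spot signal, the column these files hold. Dim probes (Comp, Tgfbi, Sparcl1) lie near background, where signal limits precision. No paired analysis was possible because each group had 1 array.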
